A study of Rattus norvegicus with 4 samples.

Results

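The spots described here were those richest in 3 transcripts of the kidney tubule, Cyp24a1, Cyp2c24 and Slc5a10, on frozen kidney sections of Sprague-Dawley rats measured with Visium, an assay that captures RNA on a grid of barcoded spots. They were chosen by measured values. In the sections healthy, PAN_LS-FMD and healthy_LS-FMD, each spot with at least 3000 UMIs (unique molecular identifiers, a count of captured molecules) was scored by the UMIs of the 3 genes over its total, and the top 10% of each section were taken. This gave 286 spots of 2863 in healthy, 218 of 2180 in PAN_LS-FMD and 255 of 2551 in healthy_LS-FMD, or 759 of the 7594 that could be ranked and of 10383 spots in all 4 sections. The same ranking gave 261 of 2607 spots in the section PAN, which were kept apart and used only for comparison. Because the choice used the 3 genes, their levels in the chosen spots are given as a description.

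Each section stood for 1 group of rats. PAN had an injection of puromycin aminonucleoside, which damages podocytes and is used to model nephrotic syndrome, was fed ad libitum, and was examined 5 months after it. PAN_LS-FMD had the same injection and 6 cycles of LS-FMD, a fasting mimicking diet low in salts, and was taken 6 weeks after that treatment, at the same 5 months. The group healthy had neither, and healthy_LS-FMD was an uninjected rat with 1 diet cycle, taken at 72 h of refeeding. The labels give Sprague-Dawley for all 4 groups and no sex, age or pooling of animals. No group had a replicate, so none could be tested against another. Every interval is a 95% interval of counting error, and a difference between groups is a difference between these sections.

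Cyp24a1 encodes the vitamin D 24-hydroxylase, the mitochondrial enzyme that inactivates calcitriol, and its gene is a classical target of the vitamin D receptor. In the kidney it is made chiefly in the proximal tubule, where parathyroid hormone lowers it and FGF23 raises it. Slc5a10 encodes SGLT5, a sodium-coupled transporter of fructose and mannose on the apical side of proximal tubule cells, and Cyp2c24 encodes a cytochrome P450 of the CYP2C family. The proximal tubule runs from the S1 segment, which reabsorbs most glucose and amino acids, through S2, rich in organic anion and cation transporters, to the straight S3 segment in the outer stripe of the medulla.

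The sections held 24925280 (PAN), 58569311 (healthy), 34966981 (PAN_LS-FMD) and 25331233 (healthy_LS-FMD) UMIs, and levels are given as CPM (UMIs per 1000000 UMIs). A spot covers a patch of tissue with more than 1 cell and often more than 1 cell type, and fewer cells of a type cannot be told apart from less RNA per cell. The chosen spots were slightly deeper than the other spots of their section, with a median of 9710 against 8618 UMIs in PAN, 21024 against 19392 in healthy, 16284 against 14868 in PAN_LS-FMD and 9816 against 8867 in healthy_LS-FMD. Mitochondrially encoded RNA made up 2.70 to 5.56% of UMIs in the chosen spots and 3.17 to 5.23% in the others. Pairs of sections had 1650 to 2279 spot barcodes in common, and 8 to 28 of the chosen ones. The section healthy_LS-FMD stood apart. Its other spots had a median score of 40.2 CPM, against 278 in PAN, 156 in healthy and 155 in PAN_LS-FMD. In them principal cell genes summed to 2188 CPM, against 915 in the other spots of healthy. The healthy matrix came from another version of the counting software than the other 3.

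Promoters are shown for Cyp2c24 and Slc5a10, the 2 of the 3 ranking genes that matched the RefSeq promoter table (assembly GRCr8), because levels of these genes ranked the spots. Each is the 250 bases before the annotated start, written 5′ to 3′ on the strand of the gene. Cyp2c24 lies on the plus strand at chr1:246286091-246286340 and Slc5a10 on the minus strand at chr10:46898461-46898710. The capitals mark a TATAAA match. It begins 29 bases before the start of Cyp2c24, and there was none in Slc5a10.
Cyp2c24: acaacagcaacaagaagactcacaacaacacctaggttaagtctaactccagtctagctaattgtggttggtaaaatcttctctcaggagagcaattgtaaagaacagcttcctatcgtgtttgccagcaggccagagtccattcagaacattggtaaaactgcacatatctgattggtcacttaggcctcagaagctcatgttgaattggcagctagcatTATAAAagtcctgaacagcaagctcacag
Slc5a10: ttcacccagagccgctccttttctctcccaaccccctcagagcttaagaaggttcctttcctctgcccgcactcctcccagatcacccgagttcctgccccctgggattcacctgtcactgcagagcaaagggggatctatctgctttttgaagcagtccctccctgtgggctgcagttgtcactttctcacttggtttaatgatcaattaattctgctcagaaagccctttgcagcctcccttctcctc
Motifs were searched by their letters on both strands. The TATA box letters TATAAA were found in 12.9% of 33469 promoters of this length. Part of an HNF1 site, GTTAAT, was found in 6.45% of them. A nuclear receptor half-site, AGGTCA, was found in 14.1%. Neither of the last 2 motifs matched in the windows printed here. Of 14 promoters matched to the 15 genes highest in the chosen spots, 2 held the first motif, 2 the second and 4 the third.

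In the chosen spots the balance of the 3 genes differed between sections. Cyp24a1 stood at 119 CPM in healthy, 262 in PAN_LS-FMD and 135 in healthy_LS-FMD, and at 494 in the PAN spots of the same rank. Slc5a10 stood at 323, 245 and 383 CPM in the same order, and at 437 in PAN. Cyp2c24 was at 112, 121 and 72.1 CPM, and at 128 in PAN. Slc5a10 had the most UMIs of the 3 genes in 83.6% of the chosen healthy spots and 76.1% of those of healthy_LS-FMD, but in 37.6% in PAN_LS-FMD, where Cyp24a1 led in 39.0%. In PAN Cyp24a1 led in 50.2% and Slc5a10 in 42.1%. The score of the last spot taken and the first left out was 421.41 and 421.37 CPM in healthy, 457.70 and 457.60 in PAN_LS-FMD, and 376.08 and 376.03 in healthy_LS-FMD, so the limit cut a continuous range. The median chosen spot held 11, 10.0 and 5 UMIs of the 3 genes in these sections, and the choice of single spots near the limit therefore rested on few counts.

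**Figure D1:**
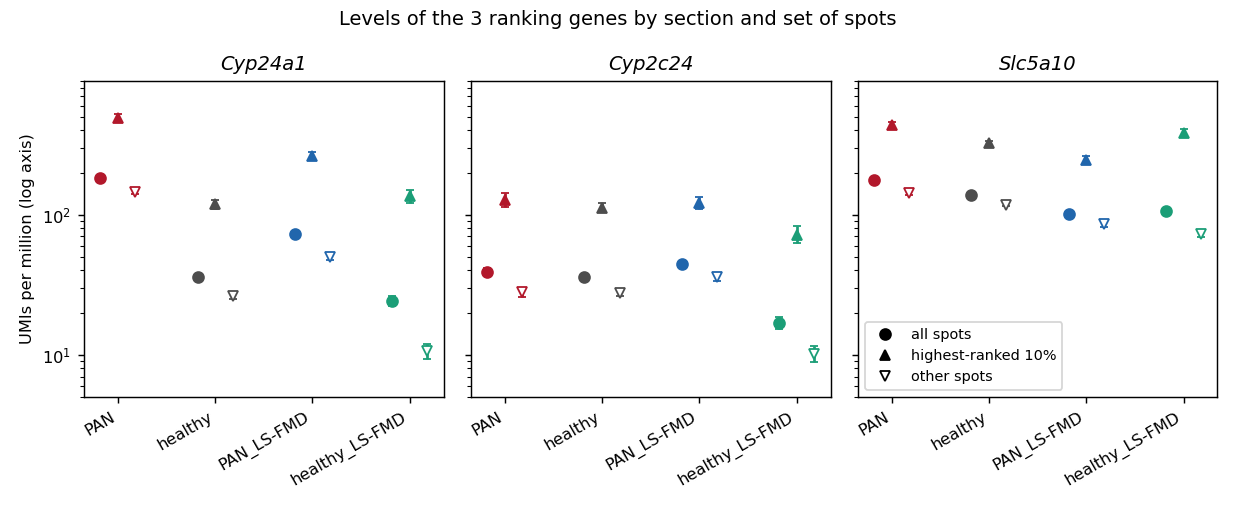
Levels of Cyp24a1, Cyp2c24 and Slc5a10 (CPM, log axis) in all spots, the highest-ranked 10% and the other spots of the 4 sections, with 95% Poisson intervals where these exceed the marker. Cyp24a1 over all spots was at 183 in PAN against 24.2 to 72.6 in the other sections, while Cyp2c24 was at 38.8 in PAN against 17 to 44.8.

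Whether the 3 genes mark the same spots can be read from each gene in spots ranked by the other 2 alone, a level the ranking did not use. Cyp24a1 was then 2.41-fold (2.17 to 2.68) higher in the top 10% of healthy than in the rest, 2.21-fold (2.0 to 2.43) in PAN_LS-FMD and 5.71-fold (4.84 to 6.72) in healthy_LS-FMD. Cyp2c24 was 2.65, 2.18 and 4.61-fold higher in the same order, and Slc5a10 1.75, 1.78 and 2.90-fold. In PAN the folds were 1.39 (1.28 to 1.51) for Cyp24a1, 2.84 for Cyp2c24 and 1.52 for Slc5a10, so the value for Cyp24a1 was below 1.5. The top 10% ranked by Cyp24a1 alone and by Slc5a10 alone had 15.7% of spots in common in PAN, 23.1% in healthy, 22.9% in PAN_LS-FMD and 32.2% in healthy_LS-FMD. Unrelated lists of 10% of spots would have about 10% in common. Cyp24a1 and Cyp2c24 had 13.0% in common in PAN and 20.2 to 23.5% in the other sections. For Cyp2c24 and Slc5a10 the shares were 21.1 to 30.4%. Each gene was thus raised with the other 2 in each section, least so Cyp24a1 in PAN. Most spots at the top of a list were not at the top of another.

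In the chosen spots most general proximal and S2 genes lay above the other spots, by little in healthy and PAN_LS-FMD and by more in healthy_LS-FMD. S1 and S3 genes were mixed, and Slc7a12 of S3 was called lower in all 3 sections. A gene counted as measured at 20 UMIs over the spots compared, and as called at a fold of at least 1.5 whose interval excluded 1. Against the other spots, 0.917% of 12325 measured genes were called higher and 3.48% lower in healthy, 0.941 and 2.63% of 11686 in PAN_LS-FMD, and 3.23 and 10.8% of 11561 in healthy_LS-FMD. The ranking used the 3 genes alone, and the list values that follow are a description of the spots it chose, not a test. The median log2 fold of all measured genes was -0.06, -0.04 and -0.16.

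Of 14 general proximal tubule genes, 12, 13 and 13 lay above 1 in healthy, PAN_LS-FMD and healthy_LS-FMD, with median log2 folds of 0.24, 0.25 and 0.80. None passed the call in the first 2 sections and 10 did in healthy_LS-FMD. Slc34a1, the main renal phosphate transporter, was at 4469 against 3334 CPM in healthy, 4902 against 3606 in PAN_LS-FMD and 4985 against 2272 in healthy_LS-FMD. Lrp2, the endocytic receptor megalin that takes up filtered vitamin D with its carrier, was at 1460 against 1113, 1719 against 1363 and 1731 against 972 CPM. Aqp1, a water channel also made in the thin descending limb, was the only gene below 1 in all 3 sections, with folds of 0.951, 0.903 and 0.829. Pck1, the gluconeogenic enzyme PEPCK, was 3.14-fold higher in healthy_LS-FMD and 1.21 and 1.06-fold in healthy and PAN_LS-FMD.

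S2 genes were above 1 in 7 of 7, 6 of 7 and 7 of 7 cases, with median log2 folds of 0.33, 0.19 and 0.95. The sulfate transporter Slc13a1 was at 220.3 against 154 CPM in healthy, 303 against 215 in PAN_LS-FMD and 155 against 60.7 in healthy_LS-FMD. The organic anion transporters Slc22a6 and Slc22a8 were 2.22 and 2.36-fold higher in healthy_LS-FMD, 1.29 and 1.11-fold in healthy and 1.14 and 1.07-fold in PAN_LS-FMD. Calls for S2 genes numbered 0, 0 and 3.

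S1 genes leaned lower in healthy (median log2 fold -0.46, with 3 of 8 called lower) and were near the other spots in PAN_LS-FMD (-0.13, none called) and healthy_LS-FMD (0.27, 1 of 7 called higher). Slc5a2, the main glucose transporter SGLT2, was at 127 against 195 CPM in healthy, 101 against 133 in PAN_LS-FMD and 67.8 against 64.4 in healthy_LS-FMD. The lactate transporter Slc5a12 had folds of 0.655, 0.774 and 1.11, and the neutral amino acid transporter Slc6a19 of 0.800, 0.879 and 1.21. Slc2a2, the basolateral glucose carrier GLUT2, went the other way with 1.32, 1.23 and 1.72. No S1 gene was called lower in all 3 sections.

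S3 genes were divided. Their median log2 folds were 0.09, 0.04 and 0.08, and of 12 genes 1 was called higher in all 3 sections and 1 lower. The higher one was Acsm3, a mitochondrial medium-chain acyl-CoA synthetase, at 421 against 177 CPM in healthy, 141 against 81.0 in PAN_LS-FMD and 739.9 against 203 in healthy_LS-FMD. The lower one was the amino acid transporter Slc7a12, at 35.0 against 85.4, 149 against 273 and 53.5 against 127 CPM. Slc7a13, the cystine and aspartate carrier that marks late S3, was at 2226 against 2565, 2380 against 3171 and 2082 against 2287 CPM, and the organic anion transporter Slco1a6 had folds of 0.839, 0.751 and 0.766. Slc6a18 (1.25, 1.13 and 1.43) and the brush border peptidase gene Ggt1 (1.21, 1.06 and 1.43) were on the other side of 1. Summed over the list, general proximal genes were 1.17-fold higher in the chosen spots of healthy, 1.18-fold in PAN_LS-FMD and 1.60-fold in healthy_LS-FMD. Most single segment genes did not pass the call.

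Genes of other parts of the nephron were mostly lower. Thick ascending limb genes had median log2 folds of -0.27, -0.10 and -0.53, principal cell genes -0.72, -0.35 and -0.85, intercalated cell genes -0.63, -0.67 and -0.49, and thin limb and inner medulla genes -0.74, -0.52 and -1.37. In distal convoluted and connecting tubule genes they were -1.07, -0.88 and -0.37 over 4 measured genes. The calcium-binding Calb1 was lower in all 3 sections, at 46.1 against 128, 63.7 against 145 and 192 against 294 CPM. S100g of the same list went the other way, above 1 in all 3 sections and called higher in healthy_LS-FMD. Podocyte genes had medians of -0.92, -0.56 and -0.10, endothelial genes -0.24, -0.28 and -0.57, and macrophage and MHC class II genes -0.18, -0.06 and -0.36. Summed levels of the principal cell list were 0.599, 0.728 and 0.540 times those of the other spots.

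**Figure D2:**
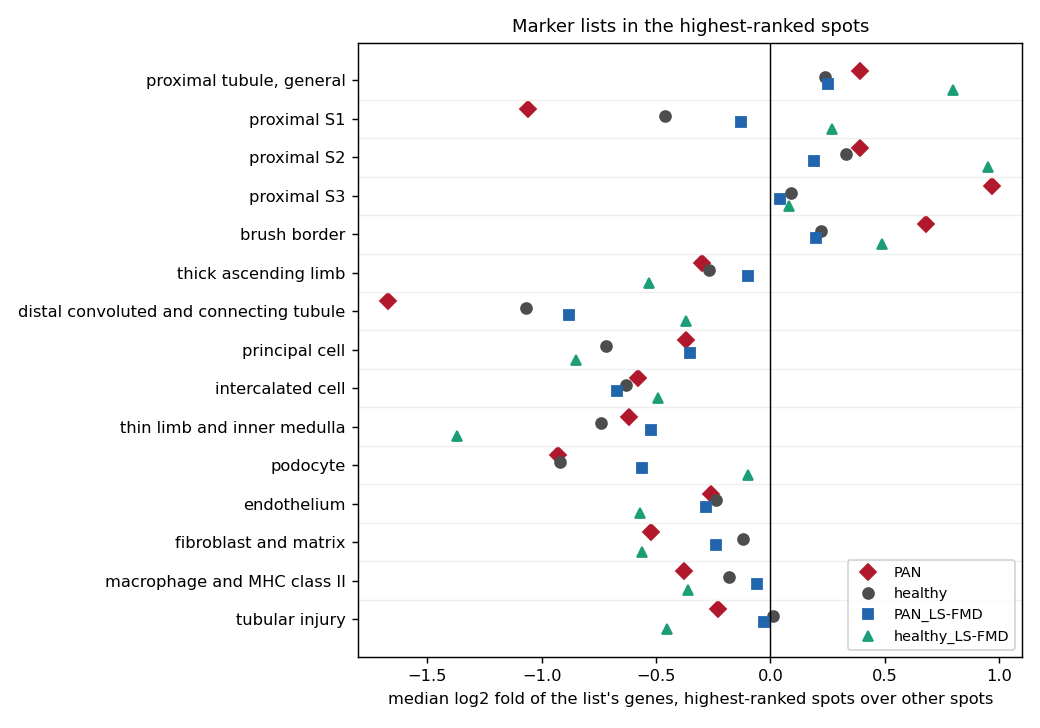
Median log2 fold of the measured genes of 15 marker lists, highest-ranked 10% of spots over the other spots, 1 marker a section. General proximal, S2 and brush border lists lie above 0 in all 4 sections, S3 genes lie at 0.97 in PAN and 0.04 to 0.09 elsewhere, and S1 genes run from -1.06 in PAN to 0.27 in healthy_LS-FMD.

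The reverse ranking did not use the 3 genes. Spots were ranked by the UMIs of each segment list, and the top 10% were compared with the rest. Cyp24a1 was higher in the spots richest in general proximal genes, 1.98-fold in healthy, 1.90-fold in PAN_LS-FMD and 8.38-fold in healthy_LS-FMD, and in those richest in S2 genes, 2.03, 1.59 and 3.64-fold. In the spots richest in S3 genes it was at 0.333, 0.236 and 0.219 times the rest. S1-ranked spots gave 1.05, 0.946 and 1.41. Outside PAN, Cyp24a1 thus went with S2 and general proximal genes and was low where S3 genes peaked.

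Cyp2c24 and Slc5a10 were distributed otherwise than Cyp24a1 in healthy and PAN_LS-FMD, and like it in S2-ranked and general proximal spots of healthy_LS-FMD. In S2-ranked spots Cyp2c24 was at 0.786, 0.632 and 2.66 times the rest in healthy, PAN_LS-FMD and healthy_LS-FMD, and Slc5a10 at 0.733, 0.813 and 2.06 times. In S3-ranked spots Cyp2c24 was at 0.996 (healthy), 0.717 (PAN_LS-FMD) and 0.999 (healthy_LS-FMD) times the rest, and Slc5a10 at 1.03, 0.693 and 0.999 times. In S1-ranked spots Cyp2c24 was at 0.409, 0.546 and 0.825 times the rest and Slc5a10 at 0.474, 0.778 and 0.893 times. In spots ranked by general proximal genes both lay below 1 in healthy (0.609 and 0.664) and PAN_LS-FMD (0.598 and 0.946), and above it in healthy_LS-FMD (4.09 and 3.05). Each ranking and the chosen set took 10% of a section's spots. Of the spots ranked by general proximal genes 6.64% were chosen spots in healthy, 10.6% in PAN_LS-FMD and 45.9% in healthy_LS-FMD. For S1-ranked spots the shares were 1.75, 5.96 and 8.63%, for S2-ranked spots 8.04, 8.26 and 27.8%, and for S3-ranked spots 5.24, 0.459 and 6.27%. Unrelated lists would share about 10%. In healthy and PAN_LS-FMD all of these shares were below that, except the 10.6% of general proximal spots in PAN_LS-FMD. The spots richest in any of these lists were thus mostly not the chosen ones there.

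Spots were also ordered by general proximal genes and divided into 5 equal classes. The summed level of the 3 ranking genes was highest in class 4 in healthy (289.6 CPM) and PAN_LS-FMD (301), and stood at 215 and 278 in class 5, the richest in proximal genes. In healthy_LS-FMD it was highest in class 5, at 326 CPM against 135 in class 4. Class 5 held 21.7% of the chosen spots in healthy, 29.8% in PAN_LS-FMD and 65.1% in healthy_LS-FMD. In the chosen spots of healthy_LS-FMD the principal cell and injury lists were at 0.540 and 0.472 times the other spots. The share that mixing of cell types within spots had in these folds was not tested.

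**Figure D3:**
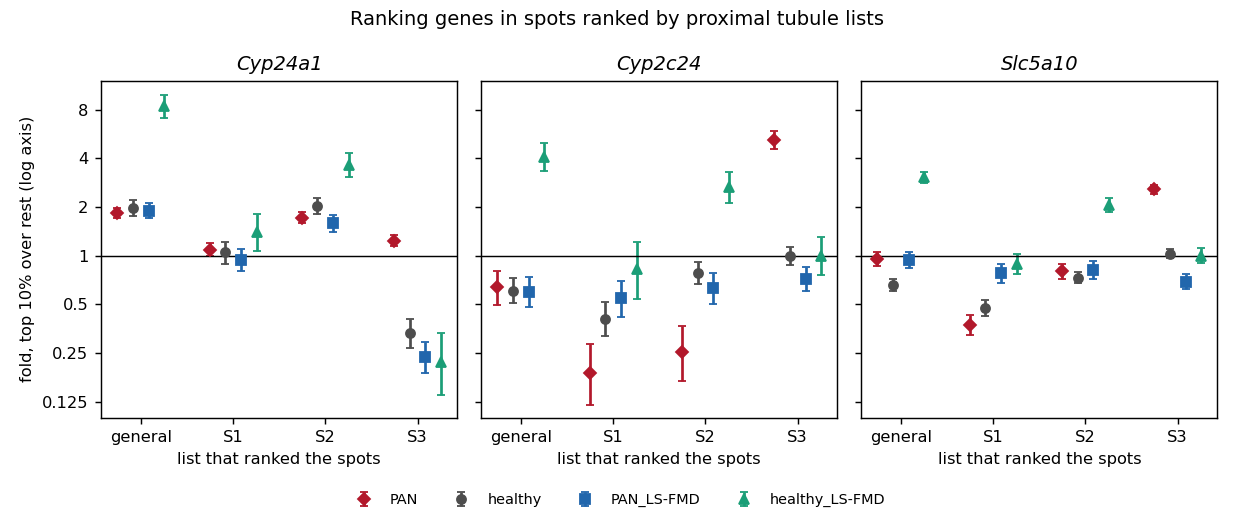
Fold of Cyp24a1, Cyp2c24 and Slc5a10 in the top 10% of spots ranked by general proximal, S1, S2 or S3 genes over the rest of the section (log axis), with 95% intervals of counting error. In S3-ranked spots Cyp24a1 lies at 0.219 to 0.333 outside PAN and at 1.24 in PAN, where Cyp2c24 reaches 5.17 and Slc5a10 2.57.

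Beyond the ranking genes, 24 of 11259 genes measured in all 3 sections (0.213%) were called higher in the chosen spots of all 3, and 63 (0.560%) lower. Without healthy_LS-FMD, the section that stood apart, the counts were 31 and 104, without PAN_LS-FMD 41 and 191, and without healthy 44 and 121. Since a gene had to be called in every section kept, leaving a section out could only keep or raise these counts. The gene with the largest fold, ranked by the section where it was nearest 1, was Tex101, a surface glycoprotein known from germ cells, at 27.2 against 7.82 CPM in healthy, 6.18 against 1.70 in PAN_LS-FMD and 21.9 against 2.36 in healthy_LS-FMD. F2, which encodes prothrombin, was at 40.6 against 15.5, 68.8 against 26.4 and 24.4 against 6.10 CPM. Apoc2, the lipoprotein lipase cofactor, was at 64.5 against 25.5, 76.6 against 25.5 and 40.5 against 10.4 CPM.

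The other genes of this kind included enzymes and transporters of the proximal epithelium. Naglt1, a sodium-glucose transporter of the tubule, had folds of 1.77, 1.85 and 3.43 in healthy, PAN_LS-FMD and healthy_LS-FMD. Enpep, the brush border aminopeptidase A that cleaves angiotensin II, had 1.64, 1.74 and 2.33. The cytosolic beta-glucosidase Gba3 had 1.65, 1.74 and 2.96, the glucuronosyltransferase Ugt2b35 1.74, 2.06 and 3.01, and Hpgd, which inactivates prostaglandins, 1.84, 2.15 and 2.18. Slc51b, a subunit of the basolateral bile acid and steroid transporter, had 1.59, 2.38 and 2.15. Dmrtc1c1 had 2.75, 2.19 and 3.97 from very different levels, since its section level was 2.99 CPM in healthy, 161 in PAN_LS-FMD and 136 in healthy_LS-FMD. Incenp, Skint10, Neu3 and Tmigd1 completed the 15 highest, and Neu3 did not pass the call (intervals from 0.988 in healthy and 0.965 in PAN_LS-FMD).

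The lowest genes were Klk1c3 (0.176, 0.325 and 0.270), a kallikrein whose symbol belongs to more than 1 identifier in the files, and Matn1, Rab6b, Adgrv1, Smim5, Slc22a13, Prom2, Ccdc108, Parm1 and Exoc3l1. Adgrv1, an adhesion receptor, was at 105 against 245 CPM in healthy, 86.3 against 214 in PAN_LS-FMD and 88.3 against 240.4 in healthy_LS-FMD. Slc22a13, an organic anion transporter, was at 3.32 against 12.4, 8.06 against 23.3 and 11.1 against 24.8 CPM. Rab6b, Smim5 and Ccdc108 had 3 to 5 UMIs in the chosen spots of PAN_LS-FMD or of every section, and were not called in all 3.

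**Figure D4:**
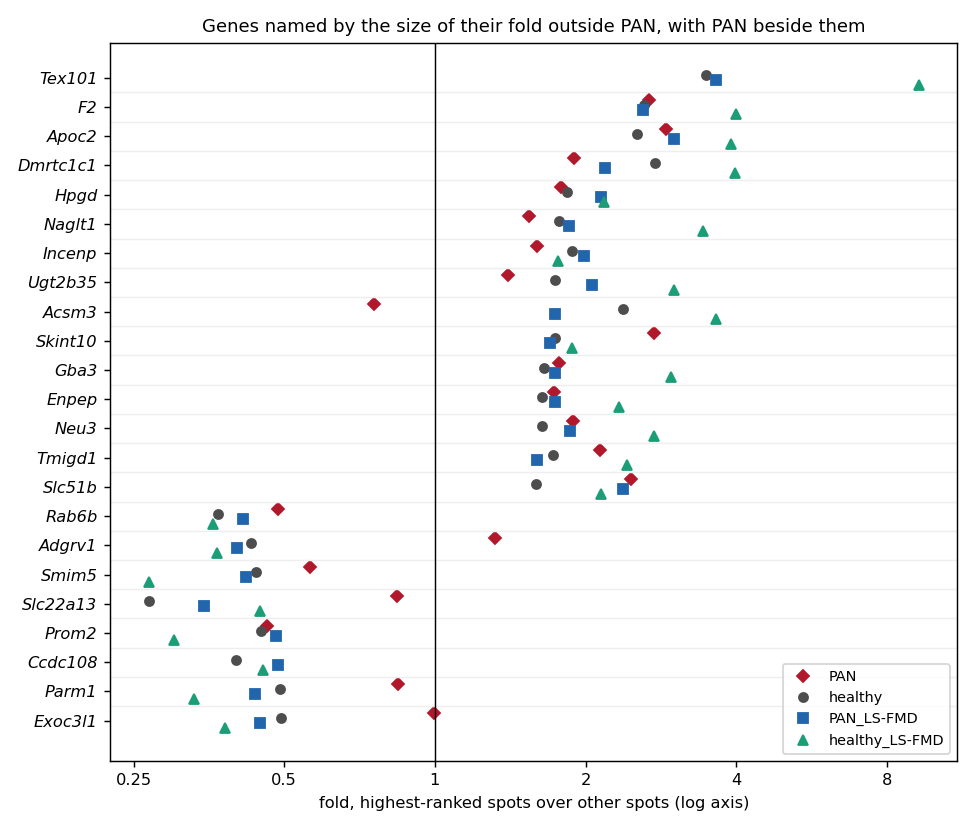
Fold of the highest-ranked 10% of spots over the other spots (log axis) for the 15 genes with the highest and 8 of the 10 with the lowest fold outside PAN (Klk1c3 and Matn1 are not drawn), with PAN beside them where a gene had at least 20 UMIs there, so that Tex101 and Ccdc108 have no PAN point. Acsm3 (0.755) and Adgrv1 (1.32) lie on the opposite side of 1 in PAN.

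Relatives of the ranking genes differed among themselves. Of the CYP2C family, Cyp2c23, the arachidonic acid epoxygenase of rat proximal tubule, was at 1665 against 1331 CPM in healthy, 2627 against 2044 in PAN_LS-FMD and 1562 against 723 in healthy_LS-FMD. Cyp2c11, the male-specific form best known from liver, had folds of 0.878, 1.00 and 0.788. How reads common to such similar genes were counted is not given in the sources used here. Of the SLC5 family, 7 of 11 listed genes were measured. Slc5a8, a monocarboxylate transporter, had folds of 1.19, 1.14 and 2.07, Slc5a9 of 1.04, 0.886 and 1.17, and the inositol transporter Slc5a11 of 0.906, 1.09 and 1.29, beside Slc5a2 and Slc5a12 above. Slc5a1 (SGLT1) stood at 1.45 to 3.23 CPM in either set of spots, and was called higher in healthy on 17 UMIs in the chosen spots.

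Genes of fructose handling were close to the other spots in healthy and PAN_LS-FMD. The fructose carrier Slc2a5 had folds of 0.987, 0.866 and 1.18, and ketohexokinase Khk 1.04, 0.979 and 1.28. Brush border genes had median log2 folds of 0.22, 0.20 and 0.49, and Enpep was the 1 of 12 called higher in all 3 sections. Fatty acid oxidation genes had medians of 0.08, 0.09 and -0.06 and nuclear respiratory chain genes of -0.01, 0.02 and -0.18, and the 1 call in these lists was higher, in healthy_LS-FMD. Vdr, the vitamin D receptor, was at 102 against 102, 127 against 134 and 132 against 119.9 CPM. S100g, the vitamin D-dependent calbindin-D9k, had folds of 1.30, 1.42 and 2.0, and was called in healthy_LS-FMD.

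The 5 genes whose spot levels followed the score most closely were Ugt1a8 (Pearson r of 0.47 in healthy, 0.41 in PAN_LS-FMD and 0.41 in healthy_LS-FMD), Enpep (0.41, 0.34 and 0.35), Apmap (0.37, 0.34 and 0.38), the lysosomal protease gene Ctsl (0.33, 0.42 and 0.34) and Ces1f (0.32, 0.32 and 0.40). These were taken over 2863, 2180 and 2551 spots of 1 library each, which shared depth and cell mixture, and describe sparse counts only.

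The 3 genes were not lost in the PAN section. Their summed level over all spots was highest there, at 398 CPM against 211 in healthy, 219.5 in PAN_LS-FMD and 148 in healthy_LS-FMD. A label that sets these spots outside PAN goes against this, and the spots are called here by the 3 genes. Cyp24a1 made most of the difference, at 183 CPM in PAN against 35.8, 72.6 and 24.2, or 5.11-fold (4.85 to 5.38), 2.52-fold (upper bound 2.64) and 7.55-fold (upper bound 8.23) higher. It stayed higher under each scaling tried (1.94 to 9.67-fold).

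Cyp2c24 and Slc5a10 moved less, and their direction depended on the scaling. Cyp2c24 was at 38.8 CPM in PAN against 36.1 in healthy, 44.8 in PAN_LS-FMD and 17 in healthy_LS-FMD. It was 2.29-fold higher than in healthy_LS-FMD. Against healthy it was 1.07-fold in CPM, 0.754-fold by the median ratio of all genes and 1.79-fold per UMI of general proximal genes. Against PAN_LS-FMD it was 0.868-fold in CPM and 0.670-fold by the median ratio, but 1.5-fold per UMI of general proximal genes. The summed general proximal genes were themselves at 0.6 times healthy and 0.578 times PAN_LS-FMD in CPM. Slc5a10 was at 176 CPM against 139, 102 and 107, or 1.27, 1.72 and 1.64-fold. Against healthy it turned to 0.891-fold when the sections were scaled by the median ratio of all genes. That median stood at a log2 fold of 0.51 in PAN against healthy, 0.37 against PAN_LS-FMD and 0.15 against healthy_LS-FMD. In CPM 44.3% of 13205 genes were called higher and 9.84% lower against healthy, 35.5 and 9.67% against PAN_LS-FMD, and 24.6 and 12.3% against healthy_LS-FMD. Scaled by the median ratio these shares were 22.7 and 21.6%, 22.0 and 18.5%, and 20.4 and 16.0%.

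Spot by spot, 930 of 2607 PAN spots (35.7%, 33.8 to 37.5) reached the score at which spots of healthy entered, 839 (32.2%) that of PAN_LS-FMD and 1078 (41.4%) that of healthy_LS-FMD. In turn 13 healthy spots (0.454%), 23 of PAN_LS-FMD (1.06%) and 33 of healthy_LS-FMD (1.29%) reached the entry score of PAN, 793 CPM. Sections differed in depth, so each spot was also thinned to 3000 UMIs. Then 767 PAN spots reached the entry score of healthy, which 394 healthy spots reached because many scores tied, and the same 767 reached that of PAN_LS-FMD, which 321 of its own spots reached. In healthy_LS-FMD the thinned entry score was that of 1 UMI, and no order was read from it.

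**Figure D5:**
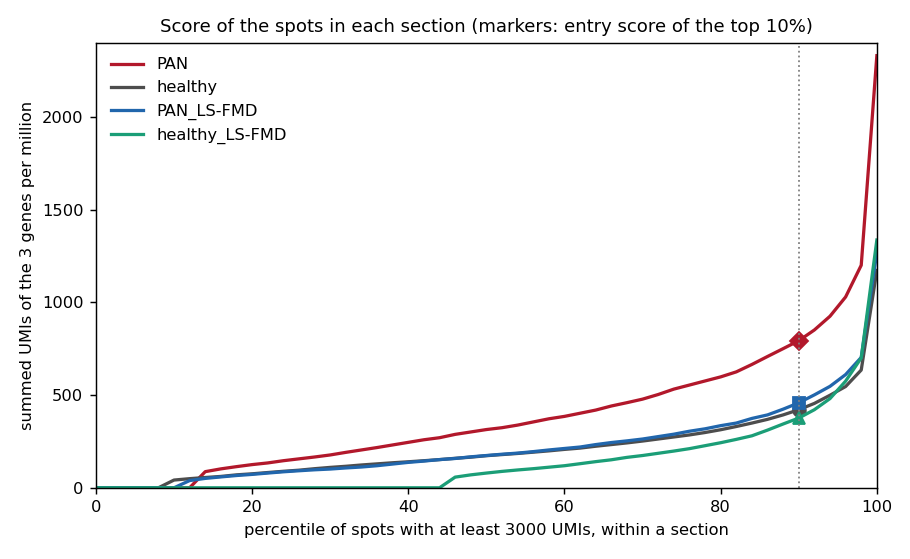
Score of each spot (summed UMIs of Cyp24a1, Cyp2c24 and Slc5a10 as CPM) against its percentile within the section, for spots with at least 3000 UMIs. Markers at the dotted line give the entry scores, 793 in PAN, 421 in healthy, 458 in PAN_LS-FMD and 376 in healthy_LS-FMD.

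The PAN section differed in its tissue as well. Over all spots 7 of 14 general proximal genes were called lower than in healthy and none higher (12 lower under the median ratio), and their median log2 fold was -0.60. Against PAN_LS-FMD 9 were lower and none higher, and against healthy_LS-FMD 4 were lower and 1 higher. Of 12 S3 genes 8 were lower and 2 higher (10 and 2 under the median ratio), and of 7 S2 genes 5 were lower and 1 higher. S1 genes were mixed against healthy, with 2 of 8 higher and 1 lower (2 and 2 under the median ratio). Their median log2 fold of 0.22 was below the 0.51 of all genes. Against PAN_LS-FMD 4 were higher and 3 lower, and against healthy_LS-FMD 7 of 8 were higher. In the other spots of healthy_LS-FMD the S1 genes were themselves low, with a summed level of 187 CPM against 493 in those of healthy. Against healthy, 44.3% of all genes were called higher and 9.84% lower. Injury genes were higher than in healthy in 7 of 9 cases, matrix genes in 10 of 10, and macrophage and MHC class II genes in 12 of 12. Within PAN the chosen spots held less of these than the other spots, with summed folds of 0.832 for injury, 0.713 for matrix and 0.812 for macrophage genes. Havcr1 (KIM-1), the injury marker of proximal cells, was at 193 against 222 CPM there and at 12.1 against 8.01 in healthy, and in PAN Spp1 (osteopontin) was at 14876 against 17486. The part of these cell types in the level of the ranking genes was not tested.

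Since the 24 higher and 63 lower genes were found without PAN, the same spot choice in PAN was a fresh section for them, although it used the same 3 genes. Within PAN 3.28% of 11935 genes were called higher in its chosen spots and 4.80% lower. Of the 24 genes 23 were measured there, 17 were called higher and none lower. Of the 63 genes 58 were measured, 22 were called lower and 2 higher. F2 was at 75.5 against 28.1 CPM in PAN, Apoc2 at 41.0 against 14.2, Enpep at 202 against 117 and Gba3 at 289 against 163. Tex101 had 1 UMI in the chosen spots of PAN, and its section level was 0.0802 CPM against 2.17 to 9.82 elsewhere. Acsm3 was at 32.2 against 42.7 CPM, a fold of 0.755, from a section level of 41.3 CPM against 87.4 to 262 elsewhere.

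The segment genes of the chosen spots differed in PAN. S3 genes had a median log2 fold of 0.97 there, with 8 of 12 called higher and 2 lower, and S1 genes of -1.06, with 6 of 8 lower. Slc7a13 was at 511 against 217 CPM (2.35-fold), Slc7a12 at 24.9 against 14.2 (1.76-fold), Slco1a6 at 269 against 117 (2.30-fold) and Slc22a7 at 10.3 against 3.24 (3.17-fold). All 4 were below 1 in healthy, PAN_LS-FMD and healthy_LS-FMD. Slc3a1 and Slc6a18, subunit and carrier of amino acid uptake, were 1.97 and 1.96-fold higher, and the androgen-regulated kidney gene Kap was at 4531 against 1750 CPM. Slc5a2 was at 87.9 against 235 CPM, and Slc34a3 at 15.4 against 41.0.

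In PAN the S3-ranked spots included 92 of its 261 chosen spots (35.2%). In these S3-ranked spots Cyp2c24 was 5.17-fold and Slc5a10 2.57-fold higher than in the rest, while Cyp24a1 was 1.24-fold. Cyp24a1 was 1.84-fold higher in spots ranked by general proximal genes and 1.72-fold in S2-ranked spots, where Cyp2c24 was at 0.638 and 0.254 times the rest. In PAN the highest folds of Cyp2c24 and Slc5a10 were thus in S3-ranked spots and that of Cyp24a1 in spots ranked by general proximal genes. Part of this order was seen elsewhere. Of these proximal lists, S3 also gave the highest fold of Cyp2c24 in healthy and PAN_LS-FMD and of Slc5a10 in healthy. The general list gave that of Cyp24a1 in PAN_LS-FMD and healthy_LS-FMD. Outside PAN, however, the S3-ranked folds were 0.717 to 0.999 for Cyp2c24, 0.693 to 1.03 for Slc5a10 and 0.219 to 0.333 for Cyp24a1. This difference in size is one between single sections and was not tested.

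Other genes of vitamin D, calcium and phosphate handling were read over all spots. Of 21 measured, 6 were higher and 6 lower in PAN than in healthy (4 and 10 under the median ratio), 3 and 6 against PAN_LS-FMD (3 and 10), and 7 and 4 against healthy_LS-FMD (6 and 4). In CPM 44.3% of all genes were higher and 9.84% lower against healthy, 35.5 and 9.67% against PAN_LS-FMD, and 24.6 and 12.3% against healthy_LS-FMD. Beside these shares, the list held fewer higher and more lower genes against healthy and PAN_LS-FMD. Vdr was at 113 CPM in PAN, 102 in healthy, 133 in PAN_LS-FMD and 121 in healthy_LS-FMD, and was called in none of these comparisons. Cyp27b1, which makes calcitriol, was close to the detection limit, with 20 UMIs in PAN, 13 in healthy, 21 in PAN_LS-FMD and 1 in healthy_LS-FMD. The calcium channel gene Trpv6, a vitamin D target, had 375 UMIs in PAN (15 CPM) and 8, 10 and 6 in the other sections (0.137, 0.286 and 0.237 CPM). Within PAN it was lower in the chosen spots, at 8.06 against 16.0 CPM. Slc34a2, a phosphate transporter of other epithelia, was at 446 CPM against 66.6, 66.5 and 69.8, and within PAN was at 499 CPM in the chosen spots against 440.2 in the others.

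Other genes on which the vitamin D and parathyroid hormone axis acts went both ways in PAN. Slc34a1 was at 2122 CPM in PAN against 3451 in healthy and 3744 in PAN_LS-FMD (0.615 and 0.567-fold, both called), and 2567 in healthy_LS-FMD (0.827, not called). Pth1r, the parathyroid hormone receptor, was at 313 CPM against 525, 558 and 528. Calb1 and S100g were lower than in each other section, Calb1 at 44.3 against 119.5, 136 and 282 CPM, and S100g at 5.70 against 22.9, 21.2 and 9.71. Trpv5, the calcium channel of the distal tubule, was higher, at 6.22 against 2.63, 2.57 and 3.32 CPM.

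Between sections, the chosen spots of PAN_LS-FMD differed from those of healthy in 727 genes called higher (7.28% of 9983) and 247 called lower (2.47%). Scaled by the median ratio the counts were 418 and 384. Slc7a12 was 4.26-fold higher (149 against 35.0 CPM), Tgm2, a protein crosslinking enzyme, 3.44-fold (554 against 161) and Dnase1 2.96-fold (485 against 164). In the other spots these folds were 3.19, 3.27 and 2.77, so each was seen across the section. The class I MHC genes RT1-A2, RT1-S3 and RT1-CE5 were 2.71, 2.46 and 2.37-fold higher, and 2.62, 1.86 and 2.13-fold in the other spots. Stt3a and Ppic completed the 8 highest. Lower genes were Cyp2d5 (136 against 411 CPM), Acsm3 (141 against 421), Gtpbp4, Ugt2b35, Cml1, Rbp4 and Resp18, at 0.331 to 0.467 times the level of healthy. In the other spots these genes were at 0.339 to 0.674 times. No general proximal gene was called. Podocyte genes were higher in 5 of 7 cases and macrophage and MHC class II genes in 7 of 12, and red blood cell genes were lower in 4 of 4. The median log2 folds of these lists were 1.02, 0.74 and -3.11 in the chosen spots and 0.53, 0.60 and -2.85 in the other spots. The part of these cells in other differences was not tested.

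The chosen spots of healthy_LS-FMD had 1641 genes higher (16.6% of 9885) and 392 lower (3.97%) than those of healthy, or 766 and 837 scaled by the median ratio. Dnase1 was 4.47-fold higher (732 against 164 CPM), and 4.67-fold in the other spots. The distal tubule genes Calb1 and Slc12a3, the thiazide-sensitive cotransporter, were 4.17 and 3.70-fold higher, at 192 against 46.1 and 548 against 148 CPM, and 2.30 and 2.21-fold in the other spots. Of the distal convoluted and connecting tubule list these were 2 of 3 measured genes, and the other was lower. Principal cell genes were higher in 6 of 6 cases, intercalated cell genes in 6 of 7 and thick ascending limb genes in 2 of 7, whose median log2 fold of 0.24 was near the 0.22 of all genes. The part of these cells in other differences was not tested. Ncbp2, Steap2, Jund, Leng8 and Akr1c1 were also higher, and Akr1c1 had a fold of 2.56 in the chosen spots and 1.19 in the others. The rest of these genes had folds of 2.13 to 3.01 in the other spots. Spink1l, the beta-oxidation genes Eci1 and Acaa2, Cyp2d5, RT1-CE10, Resp18 and Gpx3 were lower, at 0.328 to 0.422 times healthy. In the other spots they were lower too, at 0.179 to 0.553 times. Gpx3, the plasma glutathione peroxidase made by proximal cells, was at 7472 against 17705 CPM (0.422-fold). Its fold was 0.276 in the other spots, at 6665 against 24176 CPM.

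PAN_LS-FMD against healthy_LS-FMD gave 454 genes higher (4.77% of 9526) and 865 lower (9.08%), or 623 and 671 by the median ratio. Tgm2 was 5.34-fold higher (554 against 104 CPM), G6pc, which releases glucose in gluconeogenesis, 2.81-fold, Gpx3 2.44-fold and Apoe 2.51-fold. In the other spots these folds were 3.88, 4.48, 3.15 and 2.05, so each was seen across the section. Cyp2d2, Eci1, Spink1l and Hspa8 were 2.44 to 2.85-fold higher, and 1.88 to 4.23-fold in the other spots. Acsm3 was at 141 against 739.9 CPM (0.190-fold) and Gtpbp4 at 61.3 against 378 (0.162-fold). Their folds in the other spots were 0.399 and 0.212. Srebf1, Ncbp2, Calb1, Rhbg, Slc16a14 and Ugt2b35 were at 0.311 to 0.358 times the level of healthy_LS-FMD. For these genes the other spots gave 0.348 to 0.668 times. All 3 comparisons draw on the same 3 sections and are not independent of each other.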

How the data were processed

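The deposited matrices hold counts: per the file headers, the authors made whole-number UMI counts per gene and spot with Space Ranger 2.0.1 for healthy and 1.2.1 for the other sections, with no normalisation. The aligner settings, genome build and annotation are not given in the sources used here. All 4 matrices list 32402 features. Sections were 10 µm thick, per the labels. Spot positions and images were not used, no doublet caller or cell-type estimate was run, and each sample is 1 section of 1 group, named from the labels.

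UMIs were summed over sets of spots and divided by all UMIs of those spots. Folds have exact intervals of 2 Poisson counts, levels Poisson and shares Clopper-Pearson intervals, all 95%. A gene was called at a fold of 1.5 with the interval excluding 1 and at least 20 UMIs. The ranking genes were left out of counts. No test between groups was possible. Pearson r was taken over spots. Calculations used Python 3.11.15, NumPy 2.4.6, SciPy 1.17.1 and pandas 2.3.3 and were tested on simulated data.

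Named genes were the 3 ranking genes; the 15 highest and 10 lowest by the section whose fold is nearest 1, with at least 50 UMIs in chosen or other spots of each section; the 8 highest and 8 lowest between sections with at least 200 UMIs in both; up to 4 genes of each list by size of fold, which the text goes past where it reports a pathway; all Cyp2c and Slc5 genes detected; and 5 genes following the score. Mitochondrial, ribosomal, haemoglobin and provisional symbols were left out. Some genes that the rule names are not reported here. The 30 lists held 267 genes, of which 253 matched a feature. The chosen spots and the lists were set with earlier results of these data known. Alternatives were other UMI minimums, shares, ranking genes, scalings, filters and thinning, and, chosen after seeing the data, leaving out each section.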

Additional observations from a re-analysis of the deposited data

Results flagged for a closer look

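Slc7a13, Slc7a12 and Slco1a6 of the S3 list were higher in the chosen spots of PAN than in its other spots and lower in those of the other 3 sections, with intervals that excluded 1. The PAN folds were 2.35 for Slc7a13, 1.76 for Slc7a12 and 2.30 for Slco1a6. In healthy, PAN_LS-FMD and healthy_LS-FMD they were 0.868, 0.750 and 0.911 for Slc7a13, 0.410, 0.547 and 0.421 for Slc7a12, and 0.839, 0.751 and 0.766 for Slco1a6. With 1 section a group this difference was not tested.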

How the results depend on the processing

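No paired analysis was possible because each group was 1 section. Of the alternatives to the main results, 61 planned ones kept the value within its limits and 18 moved it, and of those added after seeing the data, which left out a section, 7 and 5. In the chosen spots of healthy_LS-FMD against healthy the excess of higher genes turned by the median ratio, from 1641 higher and 392 lower to 766 and 837, and in PAN_LS-FMD against healthy_LS-FMD the split went from 454 and 865 to 623 and 671. The 24 genes higher in the chosen spots of all 3 sections were 44 without the section healthy and 41 without PAN_LS-FMD. Counts with a section left out could only stay or rise. The 63 lower genes were 35 ranked without Cyp24a1, 41 without Cyp2c24, 32 without Slc5a10 and 167 by the mean CPM of spots, and 121, 191 and 104 without healthy, PAN_LS-FMD and healthy_LS-FMD. The 1 S3 gene higher in all 3 was 0 ranked without Cyp24a1 and 0 by the mean CPM of spots. Of the 24 genes, 13 were shared when ranked without Cyp24a1, 17 without Cyp2c24 and 16 without Slc5a10.

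The summed level of the 3 genes in PAN against healthy, 1.89-fold, was 1.33 by the median ratio, 1.84 without mitochondrial and haemoglobin RNA, 3.15 per UMI of general proximal genes and 1.82 by the mean CPM of spots. Against PAN_LS-FMD 1.81 became 1.40, 3.13 and 1.75 by the median ratio, proximal genes and mean CPM, and against healthy_LS-FMD 2.68 became 2.42 by the median ratio and 3.43 per proximal UMI. Slc5a10 in PAN against healthy turned from 1.27 to 0.891 by the median ratio, and Cyp2c24 against PAN_LS-FMD from 0.868 to 1.5 per proximal UMI. Between the chosen spots of sections, the mean CPM of spots, which applies the fold alone, called 1664 genes in place of 974 for PAN_LS-FMD against healthy, 3135 in place of 2033 for healthy_LS-FMD against healthy and 2138 in place of 1319 for PAN_LS-FMD against healthy_LS-FMD. Except where a setting leaves out a section or the interval, the cause was not tested. Genes with few UMIs per section had wide intervals and were seldom called.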
